A study of Mus musculus with 8 samples.

Results

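The MYC and MAX network was examined as 9 genes, Myc, Mycn, Max, Mxd1, Mxd3, Mxd4, Mxi1, Mnt and Mga, which were found by matching their symbols to the Entrez identifiers of the deposited count table. All 9 were among the 27179 genes in the table and among the 17700 genes with enough reads to be tested. The libraries were bulk RNA-seq of mouse bone marrow B-cell progenitors sorted at 2 stages, early large pre-B cells (early LPre-B) and small pre-B cells (sPre-B), with 2 libraries in each of the 4 groups of stage and genotype. Control cells (Ctrl) carried Upf1 Flox/Flox, Mb1 +/+ and Igh B1-8hi/+, and conditional knockout cells (cKO) carried Upf1 Flox/Flox, Mb1 Cre/+ and Igh B1-8hi/+. All groups therefore shared the floxed Upf1 alleles and the rearranged B1-8hi heavy chain knock-in, and the genotypes differed in the Cre allele, which is inserted at the B-lineage gene Cd79a (Mb1). Upf1 encodes the helicase at the centre of nonsense-mediated mRNA decay. The mice were adults of both sexes, and the labels do not say whether libraries came from separate animals, so the p-values given here measure the spread between these libraries.

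MYC proteins bind DNA as heterodimers with MAX at E-box sequences and activate genes for ribosome production, nucleotide synthesis and cell cycle entry. The MXD proteins, MNT and MGA also pair with MAX, bind the same sequences and recruit repressor complexes, so that the relative supply of MYC and of these partners sets which dimers can form. In B-cell progenitors MYC and MYCN accompany the burst of division that follows expression of the pre-B cell receptor, and division stops when large pre-B cells become small ones.

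Levels are given as CPM, the reads of a gene per 1000000 assigned reads, scaled between libraries by the TMM method. Library totals ran from 68516857 to 160426338 assigned reads, with a median of 96210589.5, so that 3 reads, taken as the detection floor, corresponded to 0.0217 to 0.0426 CPM. All 10 listed B-lineage markers were above this floor in each group, and Il2ra and Cd2, whose products were used in the sort, summed to 640 to 654 CPM in Ctrl sPre against 42.0 to 59.3 CPM in Ctrl early LPre. The 8 listed myeloid markers, led by Itgam, summed to 115 to 141 CPM in Ctrl early LPre, 325 to 379 CPM in Ctrl sPre, 53.6 to 59.3 CPM in cKO early LPre and 214 to 262 CPM in cKO sPre. The 5 listed T-cell markers stayed at or below 1.76 CPM, and the part of other cells in the results was not tested. Upf1 reads were not lower in the libraries labelled cKO, at 251.5 ± 9.84 CPM against 225 ± 16.7 in early LPre and 288 ± 7.69 against 192 ± 8.67 in sPre (SD, n = 2), but the loxP sites flank only some of its exons, so the gene-level count does not check the deletion. Cd79a, which loses expression from the allele that carries Cre, was at 174 ± 19.6 against 592 ± 69.0 CPM in early LPre. The Ctrl replicate 2 libraries of both stages held Y-linked reads and little Xist, and the other 6 libraries the reverse, so sex and replicate cannot be told apart within Ctrl. As the libraries with Y-linked reads were all Ctrl, sex was not balanced between genotypes. Its part in the differences between them was not tested.

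The recognition sequence of MAX dimers is the palindrome CACGTG, which reads the same on both strands. It was searched in RefSeq promoter windows of the mm10 assembly, 250 bases before to 50 bases after the start of each gene, because members of the network can themselves lie under such sequences. Windows were matched for 8 of the 9 genes, with 10 windows in all since Mxi1 has 3. None was matched for Myc, which was therefore not searched. The motif was in 3 of these 10 windows, 1 each of 3 genes, compared with 2349 of 32851 windows over all genes (7.15%). Each is shown with 12 bases on either side, 5′ to 3′ on the strand of the gene, the E-box in capitals. The stretches lie at chr5:34187912-34187941 (Mxd4, minus strand), chr11:74830789-74830818 (Mnt, plus strand) and chr12:76962234-76962263 (Max, minus strand), with the motif beginning at -219, -123 and -3 from the RefSeq start on which each window is set. For Mnt and Max this start differs from the first base in the gene positions given with each member, which also come from RefSeq.
Mxd4: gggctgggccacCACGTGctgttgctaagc
Mnt: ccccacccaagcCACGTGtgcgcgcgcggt
Max: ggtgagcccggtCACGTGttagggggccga
A match describes these letters only and is not evidence of binding.

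From early LPre to sPre, Ctrl cells lost nearly all Myc RNA and gained Mxd4 and Mxd1. Myc was 25.6-fold lower and Mxd4 2.997-fold higher in sPre, and Max was at a like level at both stages. Of the 9 genes, 5 rose (Mxd1, Mxd4, Mxi1, Mnt and Mga) and 3 fell (Myc, Mycn and Mxd3) at an adjusted p under 0.05 in edgeR's quasi-likelihood test. Calls were common in this comparison, with 60.2% of all tested genes called, 29.1% higher and 31.1% lower, so the number of members called says little and their sizes are given. The median Log2FC of the 9 was 0.48, against 0.02 over all tested genes. In bulk RNA, fewer cells that express a gene and less RNA in each cell cannot be told apart.

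**Figure D1:**
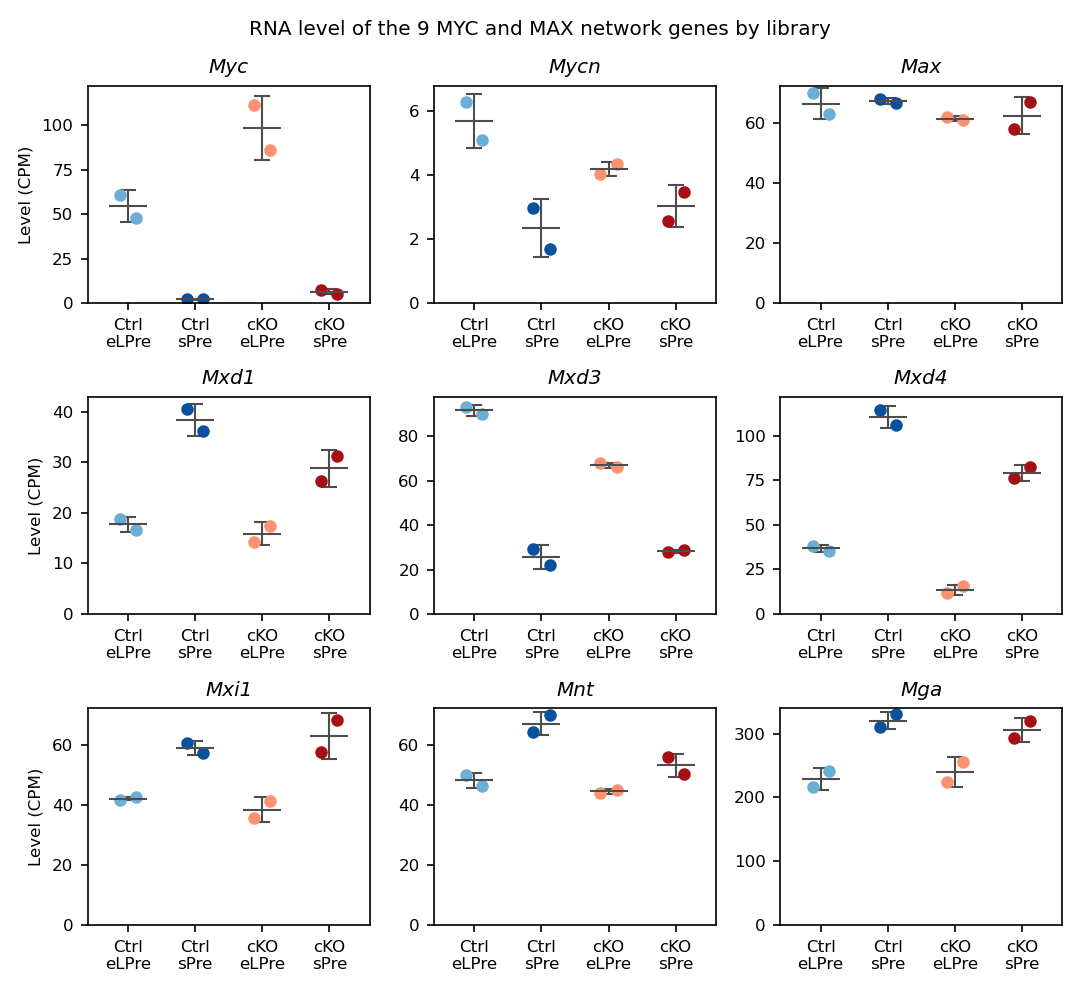
Level of each of the 9 genes in CPM, on axes that start at 0, in the 2 libraries (points) of each group, with the mean and SD as lines. Myc is high in early LPre and near 0 on its axis in sPre of both genotypes, Mxd4 shows the opposite order, and Max differs little between the groups.

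Myc (Entrez gene on chr15:61985341-61990361 of mm10) encodes the activating partner. Its level was 60.9 and 48.1 CPM in the Ctrl early LPre libraries and 2.27 and 1.99 CPM in Ctrl sPre. In the libraries labelled cKO it was 111 and 86.1 CPM in early LPre and 7.27 and 5.25 CPM in sPre. The 4 groups did not overlap, and within each stage both cKO libraries lay above both Ctrl libraries. Between stages the Log2FC was -4.68 (SE 0.22, adjusted p = 1.37e-06, edgeR) in Ctrl, the 135th lowest of 17700 genes, and -3.98 (SE 0.21, adjusted p = 2.23e-06) in cKO, a 15.8-fold fall. The difference between these falls was 0.69 (SE 0.28) and missed the threshold over all genes (adjusted p = 0.201, edgeR interaction term).

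Mycn (chr12:12936093-12941836), the MYC family member also active in progenitors, was far less abundant than Myc in early LPre. In sPre it was at a like level to Myc in Ctrl and below Myc in cKO. Mycn was at 6.29 and 5.10 CPM in Ctrl early LPre and 2.98 and 1.70 CPM in Ctrl sPre, without overlap, a Log2FC of -1.28 (SE 0.28, adjusted p = 0.00423, edgeR). The cKO libraries had 4.04 and 4.35 CPM in early LPre and 2.57 and 3.49 CPM in sPre. This smaller difference of -0.47 (SE 0.28) did not pass the test (adjusted p = 0.171, edgeR), and neither did the difference between genotypes at either stage.

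Max (chr12:76937269-76962323), the shared partner, was at 70.0 and 62.8 CPM in Ctrl early LPre, 68.0 and 66.6 in Ctrl sPre, 62.0 and 60.8 in cKO early LPre and 57.9 and 66.7 in cKO sPre. The 8 libraries spanned a narrow range, and the stages overlapped in both genotypes. Max passed no test, with Log2FC values between -0.11 and 0.02 over the 4 comparisons and SE of 0.10.

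Among the MXD repressors, Mxd4 (chr5:34176580-34187710) showed the largest rise. It was at 38.1 and 35.5 CPM in Ctrl early LPre and 115 and 106 CPM in Ctrl sPre, and at 11.7 and 15.5 CPM in cKO early LPre and 76.1 and 82.4 CPM in cKO sPre. No groups overlapped, and at each stage both cKO libraries were below both Ctrl libraries. The Log2FC between stages was 1.58 (SE 0.13, adjusted p = 1.60e-05, edgeR) in Ctrl and 2.54 (SE 0.14, adjusted p = 2.43e-06) in cKO. Of its 3872 exonic bases 514 also belong to Gm42846 on the opposite strand, whose reads the unstranded counting would not separate. The same holds for 105 exonic bases of Mxd3, shared with Prelid1, and for 194 of Mxi1, shared with Gm10197.

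Mxd1 (chr6:86647044-86669234), associated with exit from division in many lineages, was at 18.7 and 16.7 CPM in Ctrl early LPre and 40.6 and 36.2 CPM in Ctrl sPre. The cKO libraries had 14.2 and 17.5 CPM in early LPre and 26.3 and 31.3 CPM in sPre. It rose with stage by 1.12 (SE 0.15, adjusted p = 2.10e-04, edgeR) in Ctrl and 0.86 (SE 0.14, adjusted p = 8.91e-04) in cKO, and the early LPre groups of the genotypes overlapped while the sPre groups did not. Mxi1 (chr19:53310128-53373293), a further repressor of the family, rose in both genotypes, from 41.8 and 42.7 to 60.7 and 57.5 CPM in Ctrl and from 35.6 and 41.4 to 57.7 and 68.4 CPM in cKO. Its Log2FC values of 0.49 (SE 0.11) and 0.71 (SE 0.11) were smaller than those of Mxd4.

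Mxd3 (chr13:55325170-55329900) went the other way from the rest of its family. This member is known to be expressed in dividing cells, with a peak in S phase. Its levels were 93.3 and 89.9 CPM in Ctrl early LPre, 29.3 and 21.9 in Ctrl sPre, 67.8 and 66.2 in cKO early LPre and 27.7 and 28.7 in cKO sPre. The genotypes were apart in early LPre and overlapped in sPre. The fall with stage was -1.84 (SE 0.13, adjusted p = 7.37e-06, edgeR) in Ctrl and -1.25 (SE 0.13, adjusted p = 5.33e-05) in cKO. The 8 listed proliferation genes summed to 9524 to 9909 CPM in Ctrl early LPre, 765 to 1430 in Ctrl sPre, 6479 to 6778 in cKO early LPre and 1322 to 1540 in cKO sPre, so its group means had the same order as those of Mxd3, and its part in the Mxd3 result was not tested.

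Mnt (chr11:74830806-74845725), a widely expressed MAX partner that antagonises MYC, was at 49.95 and 46.3 CPM in Ctrl early LPre and 64.3 and 69.7 CPM in Ctrl sPre. In cKO it was at 43.9 and 45.0 CPM in early LPre and 55.9 and 50.4 CPM in sPre. The stages did not overlap in either genotype, with Log2FC values of 0.48 (SE 0.09, adjusted p = 0.00200, edgeR) in Ctrl and 0.26 (SE 0.09, adjusted p = 0.0373) in cKO. Mga (chr2:119872503-119970129), a large protein that joins MAX to a variant Polycomb complex, was at 217 and 241 CPM in Ctrl early LPre, 311 and 330 in Ctrl sPre, 224 and 256 in cKO early LPre and 293 and 319 in cKO sPre. It rose by 0.48 (SE 0.11, adjusted p = 0.00526, edgeR) and 0.35 (SE 0.11, adjusted p = 0.0226). The cKO call of Mnt was lost with DESeq2 (adjusted p = 0.0860), with 3 other settings, and without either Ctrl sPre library, either cKO early LPre library or cKO sPre replicate 1 (adjusted p up to 0.243). That of Mga was lost without cKO early LPre replicate 1 (adjusted p = 0.163) or cKO sPre replicate 2 (adjusted p = 0.130).

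In cKO cells the 9 genes gave 5 rises (the same genes as in Ctrl) and 2 falls (Myc and Mxd3) with stage, where 62.6% of all tested genes were called, 31.6% higher and 31.1% lower. Their median Log2FC was 0.26, against 0.05 over all genes. The libraries of the stages did not overlap for 8 of the 9 genes in each genotype, and for 80.8% of all genes in Ctrl and 83.1% in cKO.

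**Figure D2:**
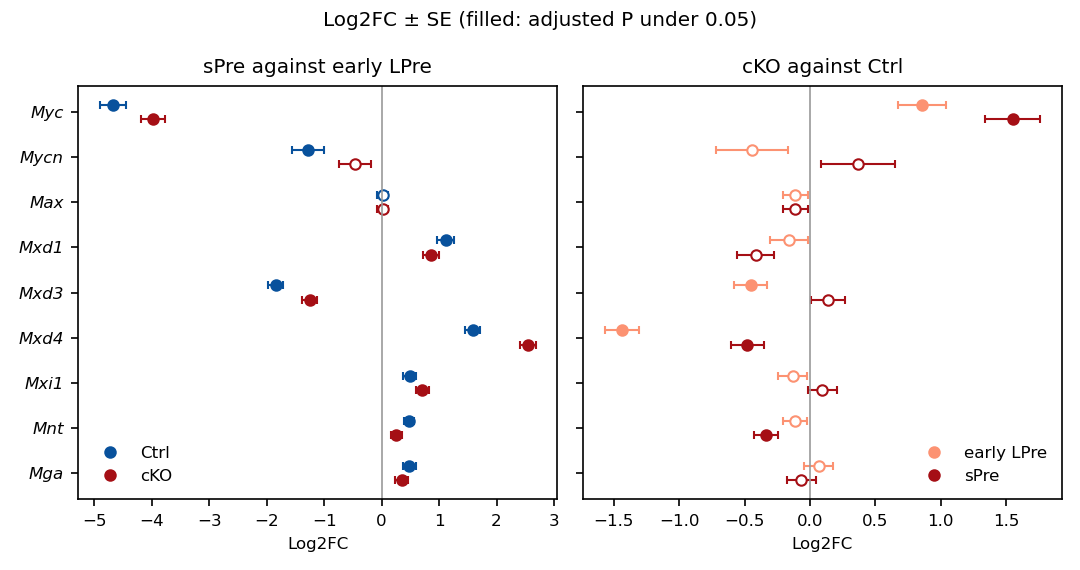
Log2FC with SE of the 9 genes between stages in each genotype (left) and between genotypes at each stage (right), filled where the adjusted p of edgeR's test is under 0.05. Myc lies furthest to the left and Mxd4 furthest to the right between stages, and between genotypes Myc is higher and Mxd4 lower in cKO at both stages.

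Between genotypes, the libraries labelled cKO had more Myc and less Mxd4 at both stages. In early LPre, Myc was 1.81-fold higher (Log2FC 0.86, SE 0.19, adjusted p = 0.00924, edgeR), Mxd4 was 2.71-fold lower (-1.44, SE 0.13, adjusted p = 1.57e-04) and Mxd3 was 1.37-fold lower (-0.45, SE 0.13, adjusted p = 0.0266). These 1 rise and 2 falls stand beside 31.3% of all tested genes called, 14.5% higher and 16.9% lower. The other 6 genes had Log2FC values from -0.44 (Mycn) to 0.07 (Mga). The libraries of the genotypes did not overlap for 7 of the 9 genes and for 66.3% of all genes. The call for Myc was lost without Ctrl early LPre replicate 2 (adjusted p = 0.0574) or cKO early LPre replicate 1 (adjusted p = 0.0766), and that for Mxd3 without any single early LPre library (adjusted p up to 0.136), whereas Mxd4 passed with each of the 8 libraries left out. Markers of the early stage differed alongside, with 3 of 5 lower in cKO early LPre and none higher, among them Dntt at 25.8 ± 1.41 against 256 ± 22.9 CPM and Kit at 2.96 ± 1.25 against 16.9 ± 2.56 CPM. Rag1 was also lower, at 59.5 ± 21.9 against 397 ± 17.0 CPM, and the part of the stage make-up of the sorted cells in these results was not tested.

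In sPre, Myc was 2.93-fold higher in cKO (Log2FC 1.55, SE 0.21, adjusted p = 8.52e-04, edgeR), and Mnt (-0.33, SE 0.09, adjusted p = 0.0222) and Mxd4 (-0.48, SE 0.13, adjusted p = 0.0204) were lower. Here 34.7% of all tested genes were called, 19.8% higher and 14.9% lower. Mxd1, with a difference of -0.42 (SE 0.14), missed the threshold (adjusted p = 0.0538, edgeR) but passed it with DESeq2 (adjusted p = 0.0176). Groups did not overlap for 4 of the 9 genes, whereas this was so for 70.8% of all genes. Myc passed with each of the 8 libraries left out, while Mxd4 did not pass without Ctrl sPre replicate 1 or without either cKO sPre library (adjusted p up to 0.126), and Mnt did not pass without Ctrl sPre replicate 2 (adjusted p = 0.0828) or cKO sPre replicate 2 (adjusted p = 0.137). All 3 listed markers of mature B cells (Cr2, Fcer2a and Ighd) were higher in cKO sPre, with a summed level of 274 to 348 CPM against 141 to 190 CPM in Ctrl sPre. Of the 5 early-stage markers, 2 were higher (Vpreb1, 9.75 ± 0.72 against 5.31 ± 0.57 CPM, and Igll1, 9.48 ± 0.999 against 6.02 ± 0.37 CPM) and 1 was lower (Dntt, 3.33 ± 0.79 against 5.52 ± 1.53 CPM) in cKO sPre. The part of these markers in the sPre differences, those of Mycl and Ccnd2 given further on included, was not tested. Although higher than in Ctrl sPre, Myc in cKO sPre was still well below its level in Ctrl early LPre. The stage and genotype comparisons share libraries, so their values are not independent.

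The stage difference of Mxd4 was larger in cKO than in Ctrl by 0.96 (SE 0.18, adjusted p = 0.0293, edgeR interaction term), and Mxd4 was the only member called in this test, where 4.24% of all tested genes were called, 2.64% higher and 1.6% lower. This call was kept without Ctrl sPre replicate 1 or cKO early LPre replicate 2 and lost without any of the other 6 libraries, with adjusted p from 0.0694 to 0.0956. For Mxd3 the interaction was 0.59 (SE 0.18), with an unadjusted p of 0.0102 and an adjusted p of 0.106.

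Division by the exon length of each gene allowed levels to be compared between members, in CPM per kilobase. The annotation used for counting is not given in the sources used here, so these lengths from GENCODE approximate the counted exons, and the ranks, shares and ratios between genes that follow rest on them. In Ctrl early LPre the order was Mxd3 (69.0 ± 1.79, SD, n = 2), Max (33.9 ± 2.59), Myc (23.3 ± 3.87), Mga, Mxi1, Mnt, Mxd4, Mxd1 and Mycn, and no neighbours overlapped. In Ctrl sPre it was Max (34.4 ± 0.51), Mxd4 (28.5 ± 1.57), Mga, Mxd3, Mxi1, Mnt, Mxd1, Myc (0.910 ± 0.086) and Mycn (0.875 ± 0.338), with overlap between Mxd3 and Mxi1 and between Myc and Mycn. Mxd4 thus moved from rank 7 to rank 2 and Myc from rank 3 to rank 8. In cKO early LPre Myc (42.2 ± 7.63) stood at rank 2, above Max (31.4 ± 0.42) and below Mxd3 (50.5 ± 0.85), and Mxd4 (3.51 ± 0.69) overlapped Mxd1. In cKO sPre Max (31.8 ± 3.18) led, and Mga, Mxd3, Mxd4 and Mxi1 followed, between 20.2 and 21.97. Neighbours among these last genes overlapped, whereas Mxi1 and Mnt did not.

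The RNAs of the 8 MAX partners among the members were also expressed as shares of their summed level per kilobase. This is a description of RNA supply and was not tested. Mycl, a further MYC family gene described below, was not part of the sum. Myc made up 15.7 ± 1.99% in Ctrl early LPre, 0.795 ± 0.037% in Ctrl sPre, 30.0 ± 4.56% in cKO early LPre and 2.56 ± 0.70% in cKO sPre (SD, n = 2). Mxd4 made up 6.42 ± 0.07%, 24.9 ± 0.17%, 2.51 ± 0.56% and 19.4 ± 0.18% in the same order. The share of the 4 MXD genes together was 64.7% in Ctrl early LPre and 65.5% in Ctrl sPre, so that in Ctrl the composition within the MXD group differed between stages more than its total. Mxd3 alone was 46.6 ± 0.64% of the pool in Ctrl early LPre and 16.8 ± 2.67% in Ctrl sPre. In cKO the 4 MXD genes were 49.7 ± 2.62% of the pool in early LPre and 64.5 ± 1.56% in sPre, so their total was not alike at the stages there.

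**Figure D3:**
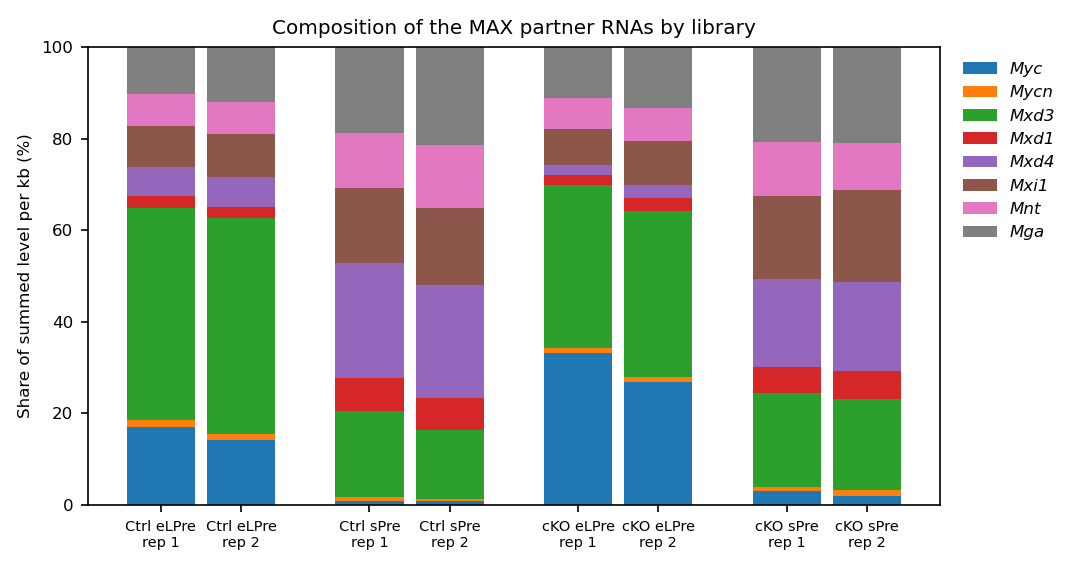
Share of each MAX partner in the summed CPM per kilobase of the 8 partners among the members, in percent. Each of the 8 libraries is 1 stacked bar. Myc and Mxd3 take up most of each early LPre bar and little of it is Mxd4, whereas Mxd4 has the largest share in the Ctrl sPre bars and Mxd4, Mxi1, Mga and Mxd3 have similar shares in the cKO sPre bars.

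The ratio of Myc to Mxd4 RNA per kilobase was 2.64 and 2.24 in the Ctrl early LPre libraries and 0.0328 and 0.0310 in Ctrl sPre. In cKO it was 15.7 and 9.22 in early LPre and 0.158 and 0.106 in sPre. Both stages and both genotypes were apart, with the cKO libraries higher. Summed partner RNA relative to Max was 4.38 ± 0.16 in Ctrl early LPre and 3.32 ± 0.11 in Ctrl sPre.

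Genes of the wider network and of the machinery that MYC and MXD proteins recruit were described from fixed lists. For each list, the shares over all tested genes to set beside its counts were 31.1% lower and 29.1% higher with stage in Ctrl, 31.1% and 31.6% in cKO, 16.9% lower and 14.5% higher in cKO than in Ctrl early LPre, and 14.9% lower and 19.8% higher in cKO than in Ctrl sPre. Of 4 other network genes tested, 2 rose with stage in Ctrl: Mycl, a MYC family member at low level (from 0.407 ± 0.167 to 1.71 ± 0.073 CPM), and Mlxip, which encodes a partner of the MAX-like protein MLX (Log2FC 1.70, SE 0.16). The same genes rose in cKO, and Mycl was higher in cKO sPre than in Ctrl sPre (4.62 ± 0.19 CPM, Log2FC 1.44, SE 0.28, adjusted p = 0.00485, edgeR), while Mlxip was lower there (-0.51, SE 0.16, adjusted p = 0.0339). Of 13 genes for the SIN3 corepressor complex that MXD proteins recruit, 8 fell and 3 rose with stage in Ctrl, with a median Log2FC of -0.59 (all genes 0.02). The largest falls were those of the histone-binding subunits Rbbp7 (-2.05, SE 0.12) and Rbbp4 (-1.46, SE 0.14), and Arid4b rose (0.94, SE 0.15). In cKO 7 of the 13 fell and 3 rose. None was higher in cKO at either stage, while 6 were lower in early LPre and 4 in sPre, among them Sap30 at both (-0.68, SE 0.20, and -0.75, SE 0.21).

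Of 12 listed MYC coactivators and cofactors, 8 fell and 2 rose with stage in Ctrl (median -0.66), and 8 fell and 1 rose in cKO. Ruvbl1, an ATPase of chromatin remodelling complexes, fell by 1.54 (SE 0.13) in Ctrl on the log2 scale. Between genotypes 1 was higher and 1 lower in cKO early LPre, and 4 were higher and 1 lower in cKO sPre, against 14.5% higher and 16.9% lower, and 19.8% and 14.9%, of all tested genes. Wdr5, which helps to anchor MYC on chromatin, was higher in cKO by 0.55 (SE 0.09) in early LPre and 0.52 (SE 0.09) in sPre, whereas the acetyltransferase genes Ep300 in early LPre (-0.43, SE 0.11) and Kat2a in sPre (-0.37, SE 0.10) were lower. Of 10 partners of MGA in its Polycomb complex, 6 fell and 1 rose with stage in each genotype, led by Tfdp1 (-3.29, SE 0.12, in Ctrl), which is also a partner of cell cycle E2F proteins. Between genotypes 2 were higher and 3 lower in cKO early LPre, and 3 were higher and 3 lower in cKO sPre, to be read against the same shares over all tested genes. Pcgf6, which defines this complex, was higher in cKO early LPre (0.97, SE 0.13), and Cbx3 (-0.65, SE 0.12) and Rnf2 (-0.60, SE 0.12) were lower. Of 12 genes for turnover of MYC protein, 5 fell and 1 rose with stage in Ctrl, and 6 fell and 2 rose in cKO, so that the share called was not far from that of all tested genes. Fbxw7, which targets phosphorylated MYC for degradation, rose with stage (0.41, SE 0.10, in Ctrl), and it was lower in cKO in early LPre (-0.51, SE 0.10, adjusted p = 0.00541, edgeR) and in sPre (-0.42, SE 0.10, adjusted p = 0.0105). Gsk3b, the kinase that marks MYC for FBXW7, was also lower in cKO, at -0.58 (SE 0.09) and -0.51 (SE 0.09). The other called genes of this list were higher in cKO, 1 in early LPre (Usp36, 0.41, SE 0.11) and 3 in sPre, among them the mitotic kinase gene Plk1 (0.74, SE 0.21) and Skp2 (0.71, SE 0.20). The 3 higher and 2 lower of 12 in sPre were near the 19.8% and 14.9% of all tested genes.

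Known MYC-activated genes fell between stages, as did Myc. Of 28 listed, 26 fell and none rose in Ctrl (median Log2FC -1.69), and 27 fell and none rose in cKO (median -1.70), while the medians over all genes were 0.02 and 0.05. Srm, a spermidine synthase, fell most, by 4.17 (SE 0.21) in Ctrl on the log2 scale and fell by 3.29 (SE 0.19) in cKO. All 8 proliferation genes fell in both genotypes (medians -3.15 and -2.17), and the stages were sorted by cell size among other properties, so the part of MYC cannot be told apart from that of cell size and division.

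Between genotypes, most of the list did not pass the test. In early LPre 9 of the 28 were higher in cKO and none lower (median 0.16, all genes -0.06), led by Shmt2, a mitochondrial enzyme of one-carbon metabolism (1.67, SE 0.14), and the amino acid transporter Slc7a5 (1.65, SE 0.18). In sPre 9 were higher and 3 lower (median 0.18, all genes 0.01). Ccnd2, the cyclin D2 gene, was at 193 ± 48.2 CPM in cKO sPre against 15.1 ± 4.23 in Ctrl sPre (3.67, SE 0.25, adjusted p = 4.07e-05, edgeR) and Slc7a5 at 54.6 ± 0.94 against 10.1 ± 2.72. The 3 lower genes included the glycolytic genes Hk2 (-1.15, SE 0.22) and Pkm (-0.80, SE 0.14). Over all tested genes, 14.5% were higher and 16.9% lower in early LPre, and 19.8% and 14.9% in sPre. Of the 8 proliferation genes, 1 was lower in early LPre (Pcna, -0.48, SE 0.15, list median -0.48) and 1 higher in sPre (Tk1, 0.71, SE 0.12, list median 0.41).

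**Figure D4:**
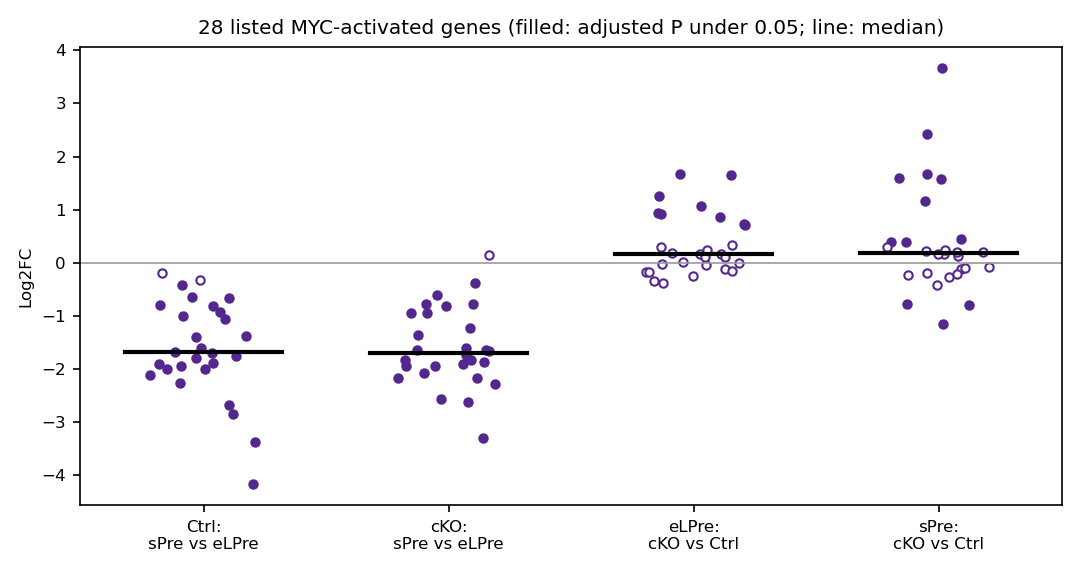
Log2FC of 28 listed MYC-activated genes (points, spread sideways for clarity) in the 4 comparisons, filled where the adjusted p of edgeR's test is under 0.05, with the median as a line. Nearly all points are below 0 between stages, and between genotypes the medians are 0.16 and 0.18 with most points not called.

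Of 6 genes known to be repressed by MYC, 3 rose and 2 fell with stage in Ctrl. The cyclin-dependent kinase inhibitor Cdkn1b rose by 1.14 (SE 0.08) and the stress gene Gadd45a by 0.96 (SE 0.12), while 2 further cyclin-dependent kinase inhibitors, Cdkn1a and Cdkn2b, fell by 3.55 (SE 0.16) and fell by 1.61 (SE 0.39) on the log2 scale. In cKO early LPre 4 of the 6 were lower than in Ctrl and none higher (median -0.59, all genes -0.06, with 16.9% of all tested genes lower and 14.5% higher), among them Ndrg1 (-1.12, SE 0.30). In cKO sPre 1 was higher and 2 lower than in Ctrl, with Cdkn1a, which is also a p53 target, at 19.3 ± 2.64 against 4.02 ± 0.73 CPM.

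The genes closest to each member in pattern were found by Pearson's r of log2 CPM over the 8 libraries. This is a description with no test, since the 8 libraries fall into 2 stages and 2 genotypes and are not independent points. Closest to Myc were an unnamed gene, Mta1 and Srm, with r of 0.999 for the last. Closest to Mxd4 were Rag1, a recombinase gene of immunoglobulin rearrangement, Trp53inp1 and Akap12, with r of at least 0.997. Closest to Mxd3 were Ccnb2, Fam83d and Pclaf, genes of DNA replication and mitosis, each with r of 0.999. The highest r for Max was 0.938, with Vps72.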

How the data were processed

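Per the study's methods, RNA from sorted cells was depleted of ribosomal RNA, made into libraries with a directional kit and sequenced in pairs. The authors trimmed reads, aligned them to mm10 with HISAT2 and counted them per gene with featureCounts, with no use of strand. The deposited values are raw counts for 27179 Entrez genes in 8 libraries, and the annotation used for counting is not given in the sources used here. Symbols and gene positions came from RefSeq (25275 genes matched, 1904 without a name), and exon lengths from GENCODE on the same assembly.

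Counts were tested with edgeR 4.0.16 in R 4.3.3 by the quasi-likelihood F test on 17700 genes kept by filterByExpr, with TMM factors, 1 mean for each of the 4 groups and Benjamini-Hochberg adjustment over all tested genes. SE is the absolute Log2FC divided by the square root of F. Calls are at an adjusted p under 0.05. The floor of 3 reads covers counting error only. DESeq2 1.42.0, other settings and leaving out each library were alternatives. The code was tested on simulated data. The members and lists were chosen with earlier results of these data known. All 9 members are named, and from each other list up to 2 genes with the largest called change each way among those whose higher group had 50 or more reads in both libraries.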

Additional observations from a re-analysis of the deposited data

Results flagged for a closer look

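The stage difference of Mxd4 was larger in cKO than in Ctrl by 0.96 on the log2 scale (SE 0.18, adjusted p = 0.0293, edgeR interaction term). It is singled out because the test of the difference between the stage effects of the genotypes passed the threshold. Mxd4 was 5.83-fold higher in sPre than in early LPre in cKO and 2.997-fold higher in Ctrl, and in cKO it was lower than in Ctrl by 1.44 in early LPre and 0.48 in sPre on the log2 scale. Both cKO libraries lay below both Ctrl libraries at each stage. Leaving out 1 library at a time gave 0.77 to 1.17, with the call lost in 6 of the 8 cases.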

How the results depend on the processing

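The counts of members called kept within 1.5 times of the values given under all 7 alternatives that left no library out, for the 2 stage comparisons and the 2 genotype comparisons, with the interaction, which cannot be fitted on 4 libraries, as the exception. There the count of 1 became 2 without an expression filter, where Mxd3 joined Mxd4 (adjusted p = 0.0481, edgeR), and 2 with the replicate block, where Myc joined (adjusted p = 0.0355). Nothing in the labels says that equal replicate numbers mark the same animal, and deviations of same-numbered libraries correlated at 0.395 between the Ctrl stages, 0.254 between the cKO stages, 0.155 between genotypes in early LPre and 0.0858 in sPre. The block changed no other call of a member. On leaving out 1 library at a time, members called ranged from 1 to 3 between genotypes in early LPre (1 without Ctrl replicate 2 or cKO replicate 1 of that stage), from 1 to 4 in sPre (1 without cKO replicate 2 of that stage) and from 0 to 2 for the interaction.

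The sign changed only for differences that were not called. Max between the cKO stages was -0.019 with only the 4 compared libraries fitted and -0.086 to 0.12 with 1 library left out. The interaction of Max was -0.040 with median-ratio size factors, -0.041 with DESeq2 and -0.15 to 0.10 with 1 library left out. The corresponding ranges in early LPre between genotypes were -0.14 to 0.0037 for Max and -0.031 to 0.20 for Mga, and in sPre -0.010 to 0.80 for Mycn, -0.093 to 0.33 for Mxd3 and -0.038 to 0.21 for Mxi1. The falls of Myc and rises of Mxd4 and Mxd1 with stage in both genotypes passed in every alternative run. Median-ratio scaling moved the split of all genes called between genotypes in sPre from 3505 higher and 2629 lower to 3289 and 2966. In early LPre, fitting only the 4 compared libraries turned this split from 2564 higher and 2983 lower to 2950 and 2311. The causes of these changes were not tested. With 2 libraries in each group, only differences that are large beside the library spread could be called.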

Other observations

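Pvt1, a long noncoding RNA gene beside Myc, was looked at after its values had been seen. It was at 1.99 and 2.46 CPM in Ctrl early LPre, 1.15 and 0.908 CPM in Ctrl sPre, 17.5 and 14.7 CPM in cKO early LPre and 17.6 and 7.11 CPM in cKO sPre. All 4 libraries labelled cKO were above all 4 Ctrl libraries. The difference between genotypes was 2.86 (SE 0.38, adjusted p = 9.80e-04, edgeR) in early LPre and 3.58 (SE 0.41, adjusted p = 3.58e-04) in sPre on the log2 scale, so that it was larger than that of Myc at both stages, a comparison of the sizes that was not tested. Unlike Myc, Pvt1 in cKO overlapped between the stages.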
